A study of Homo sapiens with 9 samples.

Results

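The genes described are 7 members of the cell cycle checkpoint built around the retinoblastoma protein: CDKN2A, CDKN2B and their chromosomal neighbour MTAP, the gatekeeper RB1, the kinases CDK4 and CDK6, and the cyclin CCND1. They were taken by symbol from a count table of 17911 genes, and all 7 were found. They were chosen by earlier CPM values of these genes in the same columns, so their levels and differences are given as a description without tests. The labels assign all 9 samples to MDA-MB-231, an established triple-negative breast cancer line: 3 capsules and 6 liquid overlay spheroids, of which 3 are called small and 3 large. Every sample carries the same treatment text, which names trastuzumab (an antibody against the receptor ERBB2), 5% Matrigel and 96 h of incubation before RNA was taken. The labels call the cells WT and give 10% fetal bovine serum for their maintenance. Nothing in them tells whether replicates are separate cultures, and the spread between libraries may be technical.

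The retinoblastoma protein RB1 holds E2F transcription factors inactive until CDK4 or CDK6, bound to a D-type cyclin such as CCND1, phosphorylates it. The INK4 proteins block those kinases: p16INK4a is made from CDKN2A and p15INK4b from CDKN2B. CDKN2A also encodes ARF, which is read from another first exon and restrains the ubiquitin ligase MDM2. MTAP, a methionine salvage enzyme, lies beside CDKN2A on 9p21 and is often lost with it in tumours. MDA-MB-231 is known for a homozygous deletion of CDKN2A and CDKN2B, so their counts bear on the identity of each column.

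The 6 spheroid columns carried 2 kinds of name, 3 with L.O. and 3 with Sph.WT, and neither gives a spheroid size. They are called the L.O. set and the Sph.WT set here. Library totals were 13212665 to 13735221 counts in the capsules, 15525725 to 15988167 in the L.O. set and 16605098 to 33263076 in the Sph.WT set. Across 15384 genes, which are not independent replicates, Pearson's r of log2(CPM + 0.5) was 0.972 to 0.983 between capsule and L.O. libraries. It was only 0.669 to 0.682 between capsule and Sph.WT libraries, and 0.650 to 0.675 between the L.O. and Sph.WT sets. CPM here means counts per 1000000 counts of the library. No pair of libraries agreed within sampling noise. Column set, depth and any difference in handling cannot be told apart.

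Markers of the labelled line divided the columns in the same way. The summed level of 20 genes typical of MDA-MB-231 was 796 to 800.1 CPM in the capsules, 1053 to 1198 CPM in the L.O. set and 8031 to 8312 CPM in the Sph.WT set. CD44, a hyaluronan receptor, was at 2.20 ± 0.327, 5.72 ± 0.329 and 849 ± 41.0 CPM in the 3 sets in that order (mean ± SD, n = 3 each), and AXL, a receptor tyrosine kinase, was at 0.818 ± 0.357, 3.37 ± 0.0793 and 676 ± 13.8 CPM. A list of 9 listed neuronal and embryonic genes summed to 2123 to 2275, 2014 to 2179 and 151 to 190.3 CPM, and the neurofilament genes NEFM and NEFL had 1 and 0 counts in all 3 Sph.WT libraries together. Of the same list, TUBB3 and MAP2 were instead highest in the Sph.WT set, at 36.9, 91.3 and 108 CPM and at 2.37, 4.86 and 32.2 CPM. The libraries labelled capsule and the L.O. set therefore go against their MDA-MB-231 label in these markers, and the Sph.WT set does not. The part of these markers in the differences below was not tested. In such bulk RNA, fewer cells of a type and less RNA per cell cannot be told apart.

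The promoter windows of the 9p21 members are shown because their 3 genes were low together in 1 set of columns. Each runs from 250 bases before to 50 bases after a start site, 5′ to 3′ on the gene's own strand, and comes from RefSeq on GRCh38.p14. Of the 7 members, 6 were matched in that promoter table, and CCND1 was not. The capitals mark GGGCGG (the core of a GC box) or its reverse complement CCGCCC. The first window is the upstream CDKN2A start used by ARF, chr9:21995275-21995574, and the second is the downstream start used by p16INK4a, chr9:21974808-21975107, both on the minus strand. CDKN2B is at chr9:22009256-22009555 on the minus strand and MTAP at chr9:21802386-21802685 on the plus strand.
CDKN2A (ARF): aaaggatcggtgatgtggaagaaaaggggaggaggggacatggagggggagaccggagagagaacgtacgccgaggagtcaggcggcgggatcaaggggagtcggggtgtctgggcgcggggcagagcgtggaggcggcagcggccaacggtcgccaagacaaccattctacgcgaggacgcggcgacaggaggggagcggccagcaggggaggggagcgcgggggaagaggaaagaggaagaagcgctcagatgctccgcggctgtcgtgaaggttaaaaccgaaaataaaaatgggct
CDKN2A (p16INK4a): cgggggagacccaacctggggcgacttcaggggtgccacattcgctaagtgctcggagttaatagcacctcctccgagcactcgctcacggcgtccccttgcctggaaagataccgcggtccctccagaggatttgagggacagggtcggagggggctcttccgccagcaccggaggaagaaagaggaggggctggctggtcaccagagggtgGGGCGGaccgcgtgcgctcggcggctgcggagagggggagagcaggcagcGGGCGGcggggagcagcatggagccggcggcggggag
CDKN2B: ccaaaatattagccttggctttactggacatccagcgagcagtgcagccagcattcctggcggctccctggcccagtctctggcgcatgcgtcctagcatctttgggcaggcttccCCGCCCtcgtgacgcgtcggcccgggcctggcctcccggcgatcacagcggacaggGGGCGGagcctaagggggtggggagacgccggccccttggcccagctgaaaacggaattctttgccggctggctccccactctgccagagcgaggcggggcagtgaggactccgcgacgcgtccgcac
MTAP: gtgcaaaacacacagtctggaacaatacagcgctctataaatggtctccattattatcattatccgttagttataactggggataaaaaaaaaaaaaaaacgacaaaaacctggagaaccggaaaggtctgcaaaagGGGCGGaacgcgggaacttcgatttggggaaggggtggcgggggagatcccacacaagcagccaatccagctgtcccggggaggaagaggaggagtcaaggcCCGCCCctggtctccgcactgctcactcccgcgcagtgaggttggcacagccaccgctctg

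The GC box core occurred 2 times in the p16INK4a, CDKN2B and MTAP windows and 0 times in the ARF window. It was present on either strand in 45.0% of all 35116 promoter windows of this length. The E2F site cores TTTCCCGC, TTTCGCGC, TTTGCCGC and TTTGGCGC, searched on both strands, had 0 matches in these 4 windows, and 3.31% of all windows held at least 1. The antisense gene CDKN2B-AS1, which starts inside CDKN2A between its 2 start sites, had 1 such match. A match is a string of letters and not a measured site. The windows held 28, 26, 25 and 15 CG dinucleotides in the order printed, against a median of 14 over all windows.

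CDKN2A and CDKN2B also share coding sequence, which matters for the assignment of reads. Of all runs of 50 bases in CDKN2A transcripts of GENCODE release 29, 0.681% also occur in CDKN2B and 6.48% in CDKN2B-AS1. A part of the counts of either gene could therefore belong to the other or to CDKN2B-AS1. The counts are per gene, so p16INK4a and ARF transcripts cannot be separated.

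CDKN2A was among the most abundant genes of the capsules and almost without counts in the Sph.WT set. The gene lies at chr9:21967752-21995324 (GRCh38.p14, the assembly that hg38 denotes). Its level was 554, 543 and 473 CPM in the 3 capsule libraries, 475, 498 and 697 CPM in the L.O. set, and 0.855, 0.631 and 0.662 CPM in the Sph.WT set. Capsule and L.O. values overlapped, and every one of the 6 lay above all Sph.WT values. The share of all genes whose values did not overlap between sets was not counted. Much of the table differed between sets, as given below, so a lack of overlap is not particular to the members. In raw counts the Sph.WT libraries held 17, 21 and 11, and the capsules 7324, 7458 and 6436. The capsule mean of 524 ± 43.8 CPM (SD, n = 3) exceeded 98.8% of all genes, while the Sph.WT mean of 0.716 ± 0.121 CPM exceeded 20.8%. Pooled over libraries, the rate was 745-fold higher in the capsules than in the Sph.WT set (95% exact counting interval 563 to 1007) and 791-fold higher in the L.O. set (598 to 1069). These intervals, and those given below for CDKN2B and MTAP, treat the pooled reads of a set as independent. They cover counting error only, leave out the spread between libraries and so are too narrow for a difference between sets. They are a description and no test, because the genes were chosen by these values. The reads carry no molecular identifiers.

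**Figure D1:**
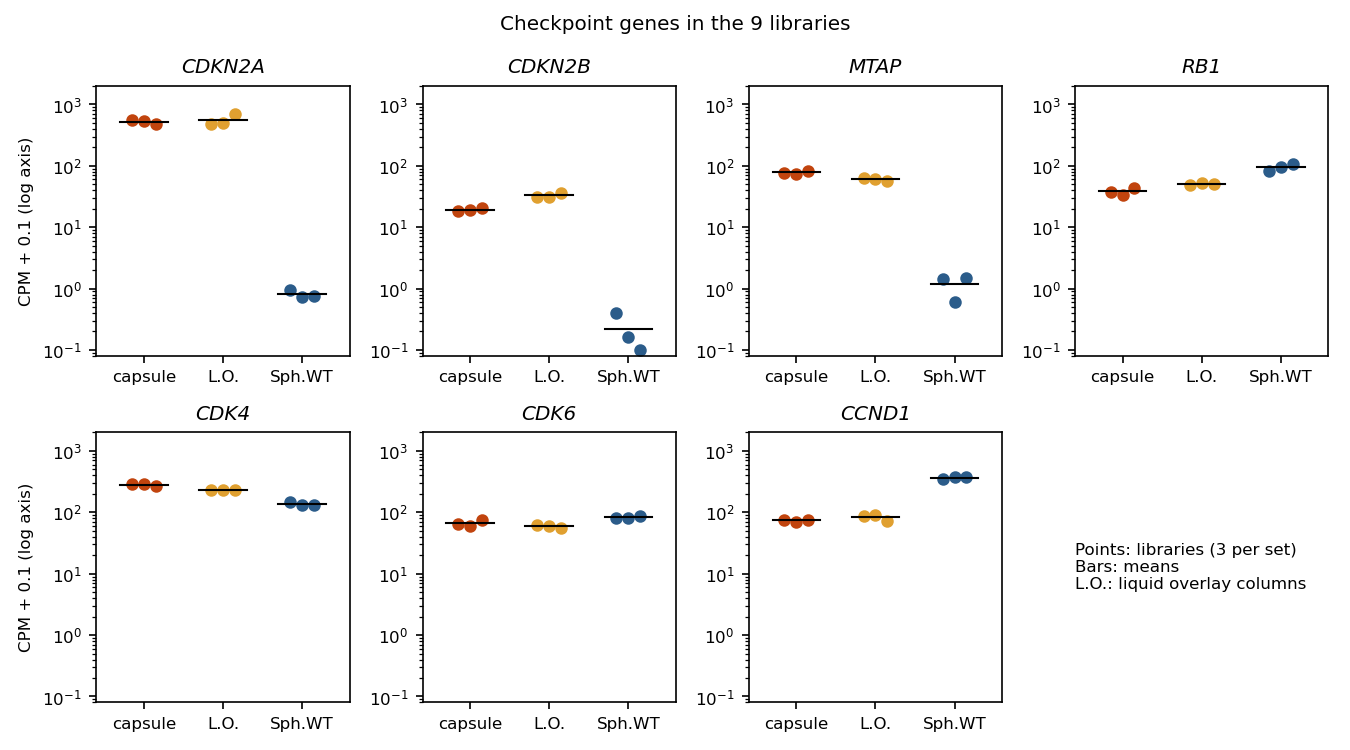
Level of each of the 7 genes in each of the 9 libraries, as CPM + 0.1 on a log axis, with 1 point per library, 3 per set, and a bar at the mean. CDKN2A, CDKN2B and MTAP lie near the bottom of the axis in the Sph.WT set (means of 0.716, 0.121 and 1.07 CPM), and RB1, CDK6 and CCND1 each have their highest means in that set.

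CDKN2B, the neighbouring INK4 gene at chr9:22002903-22009313, separated all 3 sets. It stood at 18.1, 19.1 and 20.4 CPM in the capsules, at 31.5, 31.5 and 35.4 CPM in the L.O. set and at 0.302, 0.0601 and 0 CPM in the Sph.WT set. The capsule values lay below every L.O. value and above every Sph.WT value. The Sph.WT libraries held 6, 2 and 0 counts, and a count of 0 in the last allows up to 3 counts, or 0.181 CPM. The pooled rate in the capsules was 167-fold that of the Sph.WT set (95% exact counting interval 84.5 to 389). The edgeR estimate against the L.O. set, scaled by TMM (a trimmed mean of log ratios), was a log2 fold change of -0.63 (SE 0.10). Here and below, SE is the absolute log2 fold change divided by the square root of the test's F statistic. It is not a standard error taken from the fit.

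MTAP, at chr9:21802636-21941115, followed the same division at a lower level. Its values were 77.8, 74.0 and 83.3 CPM in the capsules, 64.4, 59.9 and 55.7 CPM in the L.O. set and 1.31, 0.511 and 1.39 CPM in the Sph.WT set. All capsule values lay above all L.O. values, and those above all Sph.WT values. The Sph.WT libraries held 26, 17 and 23 counts, and the pooled capsule rate was 82.8-fold theirs (95% exact counting interval 64.9 to 107). A share of 9.24% of the 50-base runs of MTAP transcripts also occurs in other genes, 4.27% of all in ERVFRD-3, so its few counts in the Sph.WT set carry that uncertainty. NEFM, at 438 ± 21.5 CPM (SD, n = 3) in the capsules, had 1 count in the Sph.WT set, against 49 for CDKN2A and 66 for MTAP.

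RB1, the target of the kinases, was measured in every library and highest in the Sph.WT set. It stood at 37.4, 33.6 and 43.8 CPM in the capsules, at 48.4, 51.5 and 50.1 CPM in the L.O. set and at 83.8, 95.5 and 108 CPM in the Sph.WT set. The 3 sets did not overlap, and the mean of the Sph.WT set, 95.9 ± 12.3 CPM (SD, n = 3), was 2.50 times the capsule mean. RB1 lies at chr13:48303751-48481890, and no run of 50 bases of its transcripts is shared with another gene.

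CDK4 and CDK6, the kinases that INK4 proteins bind, moved in opposite directions between the capsules and the Sph.WT set. CDK4 was at 286, 285 and 270.3 CPM in the capsules, 235, 227 and 235 CPM in the L.O. set and 148, 133 and 134 CPM in the Sph.WT set, with no overlap between sets. CDK6 was at 64.0, 60.1 and 76.3 CPM in the capsules, 61.2, 60.7 and 54.5 CPM in the L.O. set and 80.4, 82.1 and 85.9 CPM in the Sph.WT set. For CDK6 the capsule and L.O. values overlapped, and both lay below the Sph.WT values. The ratio of CDK4 to CDK6, each per kilobase of exon, was 16.4 ± 2.44 in the capsules, 15.4 ± 1.17 in the L.O. set and 6.47 ± 0.578 in the Sph.WT set (SD, n = 3 each). Of the 50-base runs of CDK4, 34.9% also belong to TSPAN31, which overlaps it at chr12:57747727-57752310, so the CDK4 counts are uncertain to that extent. CDK6 lies at chr7:92604921-92836573.

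CCND1, the cyclin partner of both kinases, was the member with the highest level in the Sph.WT set. It was at 75.5, 70.8 and 75.3 CPM in the capsules, 86.0, 89.3 and 73.3 CPM in the L.O. set and 349, 383 and 372 CPM in the Sph.WT set. Capsule and L.O. values overlapped, while the Sph.WT mean of 368 ± 17.5 CPM (SD, n = 3) was 4.98 times the capsule mean. The gene lies at chr11:69641156-69654474, and 8.34% of its 50-base runs also belong to its neighbour LTO1.

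Divided by exon length, which joins the exons of all transcripts of a gene and so makes levels between genes approximate, the order of the members differed between sets. In the capsules CDKN2A led with 121 ± 10.1 CPM per kilobase, followed by CDK4 with 88.5 ± 2.76 and CCND1 with 15.3 ± 0.544 (SD, n = 3 each). RB1, CDK6, MTAP and CDKN2B followed at 5.93 ± 0.7996, 5.45 ± 0.691, 5.36 ± 0.319 and 4.73 ± 0.282 CPM per kilobase, and the first 3 of these did not differ beyond their spread. The L.O. set had the same first 3 genes, with CDKN2A at 129 ± 28.2, and CDKN2B and RB1 next at 8.09 ± 0.558 and 7.75 ± 0.236, which overlapped. In the Sph.WT set the order began with CCND1 at 76.2 ± 3.63, CDK4 at 43.6 ± 2.69, RB1 at 14.9 ± 1.90 and CDK6 at 6.75 ± 0.231 CPM per kilobase. CDKN2A, MTAP and CDKN2B closed it at 0.165 ± 0.0280, 0.0731 ± 0.0331 and 0.0297 ± 0.0394. The MTAP length of 14617 bases includes long extended transcripts, which lowers its value on this scale.

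The comparison the labels allow sets the 3 capsules against all 6 spheroid columns. Over 16985 genes tested with edgeR's quasi-likelihood test, 0.241% were called higher and 0.801% lower in the capsules, where called means a Benjamini-Hochberg adjusted p under 0.05 and at least a 2-fold difference. These were 41 and 136 genes, and 10 and 142 with scaling by library totals alone. The members' log2 fold changes, capsule minus spheroid, were 1.06 (SE 1.83) for CDKN2A, 0.37 (SE 1.70) for CDKN2B, 1.499 (SE 1.28) for MTAP and -1.10 (SE 0.45) for RB1. Those of CDK4, CDK6 and CCND1 were 0.56 (SE 0.12), -0.22 (SE 0.30) and -1.85 (SE 0.81). The spheroid mean of CDKN2A was 279 ± 314 CPM (SD, n = 6), a value that no library was near, because the 2 column sets lay on both sides of it. Each set was therefore also compared with the capsules alone.

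Against the L.O. set, where 0.792% of 15919 genes were called higher and 5.54% lower, the log2 fold changes were 0.06 (SE 0.11) for CDKN2A, 0.53 (SE 0.08) for MTAP and -0.24 (SE 0.09) for RB1. They were 0.42 (SE 0.07) for CDK4, 0.33 (SE 0.09) for CDK6 and -0.02 (SE 0.08) for CCND1. The sign for CDKN2A depends on the scaling: its capsule mean in CPM was 0.941 times the L.O. mean. Against the Sph.WT set, where 26.3% of 16157 genes were called higher and 25.4% lower, they were 9.25 (SE 0.13) for CDKN2A, 6.06 (SE 0.17) for MTAP, -1.5996 (SE 0.10) for RB1, 0.75 (SE 0.07) for CDK4, -0.59 (SE 0.08) for CDK6 and -2.59 (SE 0.07) for CCND1. With 49 and 66 counts in the Sph.WT set, the SEs of CDKN2A and MTAP there are too small to hold both counting error and the spread between libraries. Other genes with few counts in a set share this limit. Both comparisons share the capsule libraries. The median of all genes was -0.01 against the L.O. set and 0.01 against the Sph.WT set, and -0.16 and 0.29 with scaling by library totals alone. At an unadjusted p under 0.05 by edgeR, 8918 of 15919 genes differed from the L.O. set and 13998 of 16157 from the Sph.WT set, in either direction. Counts of list genes at that limit, given below, are to be read beside these. At an adjusted p under 0.05 by edgeR with no fold threshold, the numbers were 7970 and 13909.

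Low levels in the Sph.WT set extended beyond the members along 9p21. Of 26 listed genes whose midpoints lie within 5000 kb of the CDKN2A start, 9 in a row by midpoint had Sph.WT means under 1.5 CPM, a limit chosen after the values were seen: HACD4, KLHL9, MIR31HG, MTAP, CDKN2A, CDKN2B, CDKN2B-AS1, DMRTA1 and ELAVL2. They span 2.85 Mb. In all, 14 of the 26 genes and 27.1% of all genes in the table were under that limit in the Sph.WT set. The 5 that reached 5 CPM in both other sets were KLHL9, MTAP, CDKN2A, CDKN2B and ELAVL2. Over the whole table, 7.71% of the 11746 genes at that level in both other sets were under the limit in the Sph.WT set. The other 4 were below 5 CPM in the capsules as well.

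KLHL9, a substrate adaptor of a CUL3 ubiquitin ligase, was at 66.4 ± 5.08 CPM in the capsules, 72.0 ± 3.44 CPM in the L.O. set and 0.914 ± 0.304 CPM in the Sph.WT set (SD, n = 3 each), and it was called higher in the capsules than in the Sph.WT set (edgeR adjusted p = 1.0e-17). ELAVL2, a neuronal RNA-binding protein gene, was at 7.97 ± 0.663, 9.54 ± 1.29 and 0.0168 ± 0.0291 CPM, with 1 count in the whole Sph.WT set. The antisense RNA gene CDKN2B-AS1 had levels of 4.59 ± 0.368, 4.29 ± 0.971 and 0.0401 ± 0.0347 CPM. Strand handling was not given in the sources used here, so its reads and those of CDKN2A where they overlap cannot be told apart.

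On both flanks some genes had higher levels in the Sph.WT set again. On the side of MTAP, FOCAD was at 60.8 ± 2.23, 58.6 ± 5.16 and 6.59 ± 1.006 CPM and MLLT3 at 47.9 ± 2.55, 54.0 ± 6.50 and 16.8 ± 2.77 CPM in capsules, L.O. set and Sph.WT set (SD, n = 3 each). On the other side TUSC1 was at 31.1 ± 4.84, 41.3 ± 12.6 and 13.2 ± 0.748 CPM, and PLAA, a ubiquitin-binding protein gene, at 46.7 ± 1.48, 43.0 ± 2.68 and 61.8 ± 3.96 CPM. The flanks were not uniform. SH3GL2, at 3.95 CPM in the capsules and 5.71 CPM in the L.O. set, had 0 counts in the Sph.WT set, and FOCAD-AS1, SLC24A2 and ACER2 were at 0.110, 0.201 and 0.944 CPM there. CNTLN, a centrosomal protein gene farther out, was low in the Sph.WT set too (17.8 ± 2.71, 17.1 ± 1.81 and 0.409 ± 0.345 CPM), while ADAMTSL1 was higher there (0.619 ± 0.185, 1.51 ± 0.442 and 28.5 ± 2.53 CPM). Of the 21 neighbours fixed for 9p21, 12 were listed in the table. Against the Sph.WT set 5 of 9 tested were called higher in the capsules and 0 lower (edgeR), with 3 lower at an unadjusted p under 0.05. Over all genes tested, 26.3% were called higher and 25.4% lower. CDKN2B-AS1 and ELAVL2, with 3 and 1 counts in the Sph.WT set, passed the count filter only through the capsules and could not have been called lower. The list also surrounds members chosen by these values, so the count is a description. The median log2 fold change of the 9 tested was 1.23, against 0.01 over all genes tested. In the comparison with the L.O. set, 1 of 11 was called lower, beside 5.54% over all genes tested. It was DMRTA1, at 0.544 against 1.29 CPM, a call lost without the second or the last capsule library or the second L.O. library. DMRTA1 passed the count filter only through the L.O. libraries and could not have been called higher.

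**Figure D2:**
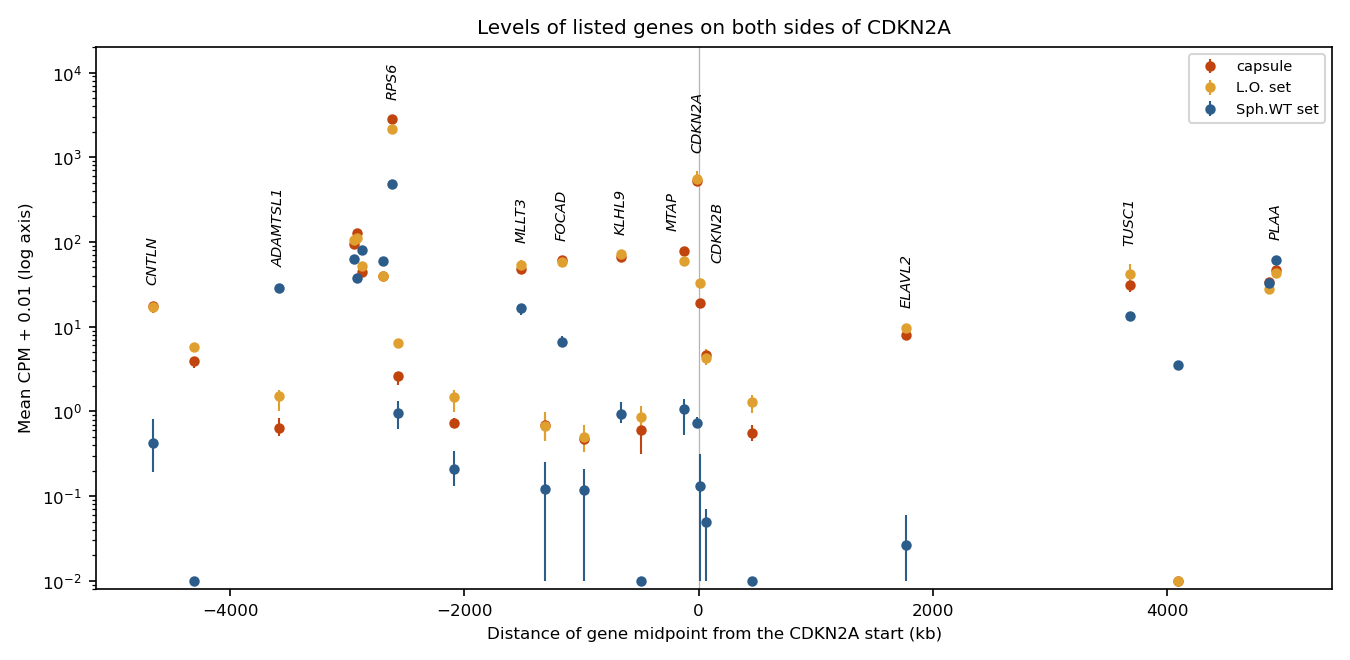
Mean level of the 26 listed genes within 5000 kb of CDKN2A, as CPM + 0.01 on a log axis, against the distance of the gene midpoint from the CDKN2A start in kb, with bars from the lowest to the highest of the 3 libraries of a set. The Sph.WT points lie below 1.5 CPM from HACD4 to ELAVL2, and FOCAD and TUSC1 on the flanks stand at 6.59 and 13.2 CPM in that set.

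On 11q13 around CCND1, neighbours differed in both directions. Of 11 neighbours fixed, 9 were listed, and against the Sph.WT set 3 of 8 tested were called lower in the capsules and 1 higher, beside 26.3% higher and 25.4% lower over all genes tested. MYEOV was at 0.640 ± 0.218 CPM in the capsules, 1.46 ± 0.614 CPM in the L.O. set and 114 ± 6.71 CPM in the Sph.WT set (SD, n = 3 each). CTTN, the gene of the actin-binding protein cortactin, was at 235 ± 9.56, 270.0 ± 14.3 and 552 ± 24.1 CPM. SHANK2 was lower in the capsules too, with a log2 fold change of -1.44 (SE 0.14; edgeR adjusted p = 8.8e-09), and ANO1, a chloride channel gene, was the one called higher, from 0.198 CPM in the Sph.WT set to 1.14 CPM. ANO1 passed the count filter only through the capsules and could not have been called lower. MYEOV passed it only through the Sph.WT set and could not have been called higher. FADD, PPFIA1 and LTO1 had log2 fold changes of -0.83, -0.68 and -0.65 and TPCN2 one of 0.39, all short of the 2-fold limit. In the comparison with the L.O. set, 2 of 9 tested were called lower in the capsules, beside 5.54% over all genes tested. They were FGF19, a hormone-like growth factor gene at 1.02 against 2.97 CPM, and MYEOV. Neither gene met the count filter by its capsule libraries alone, so their direction is not read as a result. The MYEOV call was lost without the first or the last capsule library and without the second or the last L.O. library.

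The makeup of the D-type cyclins differed between the sets. CCND2 was at 91.0 ± 8.28 CPM in the capsules, 73.6 ± 6.47 CPM in the L.O. set and 1.18 ± 0.398 CPM in the Sph.WT set, and CCND3 at 44.9 ± 3.74, 65.1 ± 7.16 and 125 ± 7.75 CPM (SD, n = 3 each). Against the Sph.WT set, CCND2 was called higher in the capsules (log2 fold change 5.92, SE 0.14; edgeR adjusted p = 7.0e-18) and CCND3 lower (-1.74, SE 0.08; edgeR adjusted p = 1.6e-13). As a share of the 3 cyclins' summed level per kilobase, CCND1 made up 42.8% ± 0.746 in the capsules, 44.3% ± 2.96 in the L.O. set and 77.9% ± 1.90 in the Sph.WT set (SD, n = 3 each). CCND2 made up 35.5% ± 2.42, 26.6% ± 1.601 and 0.169% ± 0.0587.

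**Figure D3:**
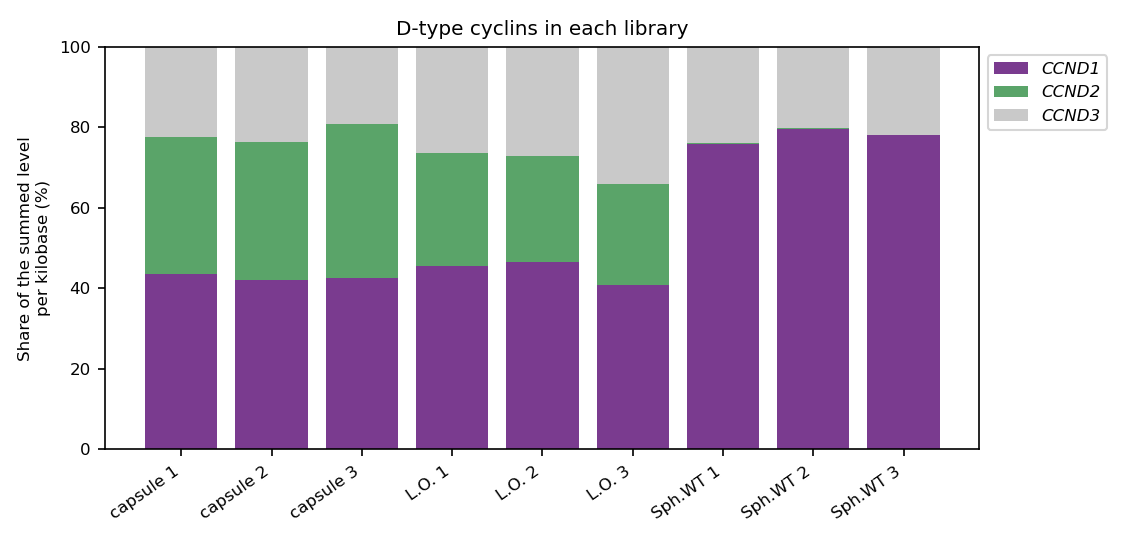
Share of CCND1, CCND2 and CCND3 in their summed level per kilobase of exon, in percent, with 1 bar for each of the 9 libraries. CCND2 takes a visible share in the capsule and L.O. libraries (means of 35.5% and 26.6%) and 0.169% in the Sph.WT set, where CCND1 takes 77.9%.

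Among the other G1 cyclins and kinases, 4 of 9 tested were called higher and 1 lower in the capsules than in the Sph.WT set (beside 26.3% higher and 25.4% lower over all genes tested), and against the L.O. set 0 were called in either direction (edgeR). At an unadjusted p under 0.05, 6 were higher and 1 lower against the L.O. set, beside 8918 of all 15919 genes tested. CDC25A, the phosphatase that activates CDK2, was at 203 ± 6.57, 163 ± 4.33 and 19.1 ± 1.24 CPM in capsules, L.O. set and Sph.WT set (SD, n = 3 each), a log2 fold change of 3.12 (SE 0.08; edgeR adjusted p = 1.9e-17) against the Sph.WT set. CDK2 itself was at 148 ± 5.14, 159 ± 8.71 and 45.7 ± 1.00 CPM. CCNE1, its cyclin partner, was at 30.1 ± 0.338, 29.7 ± 0.361 and 11.7 ± 0.287 CPM.

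The other CDK inhibitors were lower in the capsules where they were called. Against the L.O. set 2 of 5 tested were called lower and 0 higher (edgeR), with 1 higher at an unadjusted p under 0.05. Over all genes tested, 5.54% were called lower and 0.792% higher. The 2 called were CDKN1A, the gene of p21, at 43.4 ± 3.38 against 155 ± 9.67 CPM, and CDKN1C at 2.56 ± 0.210 against 7.79 ± 2.27 CPM (SD, n = 3 each). Against the Sph.WT set CDKN1C and CDKN2D were called lower and 0 higher (edgeR), with 0 higher at an unadjusted p under 0.05. In that comparison 25.4% of all genes tested were called lower and 26.3% higher. Sph.WT levels of CDKN1C and CDKN2D were 5.57 ± 0.499 and 24.4 ± 1.26 CPM, and the capsule level of CDKN2D was 10.6 ± 1.82 CPM. CDKN1A missed the 2-fold limit there (log2 fold change -0.98, SE 0.10). In the comparison with all 6 spheroid columns, CDKN1A and CDKN1C were the 2 of 5 called lower, beside 0.801% over all genes tested. Their log2 fold changes were -1.39 and -1.44 (edgeR adjusted p = 0.026 and 0.024). Both calls were lost when any 1 capsule library or the first Sph.WT library was left out, with log2 fold changes of -1.35 to -1.46 for CDKN1A and -1.38 to -1.502 for CDKN1C. The call for CDKN1A was also lost without the second L.O. library, at -1.34.

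Within the INK4 family, CDKN2A made up 81.8% ± 0.527 of the summed level per kilobase in the capsules and 75.1% ± 1.48 in the L.O. set (SD, n = 3 each). In the Sph.WT set CDKN2C and CDKN2D made up 48.8% ± 2.05 and 50.6% ± 2.11, and CDKN2A 0.515% ± 0.0819. CDKN2C, the gene of p18INK4c, was at 15.2 ± 1.31 CPM per kilobase in the capsules and 15.7 ± 1.96 in the Sph.WT set, and its TMM-scaled log2 fold change was -0.32 (SE 0.09; edgeR adjusted p = 0.0038), short of the 2-fold limit.

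The pocket proteins, E2F factors and subunits of the DREAM complex, which represses cell cycle genes in quiescence, were mixed: against the Sph.WT set 5 of 18 tested were called higher in the capsules and 1 lower, beside 26.3% higher and 25.4% lower over all genes tested. MYBL2, counted in this list though it is not a pocket protein, an E2F factor or a DREAM subunit, was at 363 ± 13.9, 349 ± 31.1 and 55.3 ± 5.74 CPM in the 3 sets (SD, n = 3 each). The activator E2F2 was at 46.4 ± 1.40, 60.6 ± 3.27 and 7.68 ± 0.364 CPM. LIN9, of the MuvB core, had a log2 fold change of 1.87 (SE 0.10; edgeR adjusted p = 9.9e-13). E2F7, a repressor of the family, was the one called lower, at 28.7 ± 2.53, 29.4 ± 2.23 and 116 ± 5.96 CPM. E2F1 was at 106 ± 6.85, 117 ± 3.16 and 79.7 ± 4.58 CPM and was not called. Without the last capsule library 2 genes were called lower instead of 1. The median of the list was 0.19, against 0.01 over all genes tested, and against the L.O. set 0 of 18 were called in either direction (edgeR). At an unadjusted p under 0.05 in that comparison, 10 were higher and 2 lower, beside 8918 of all 15919 genes tested.

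E2F target genes of the G1/S transition were called higher in the capsules than in the Sph.WT set in 21 of 37 tested and lower in 0 (edgeR). At an unadjusted p under 0.05, 2 were lower. Over all genes tested, 26.3% were called higher and 25.4% lower. The list's median log2 fold change was 1.08, against 0.01 over all genes tested. CDT1, which loads the replicative helicase, was at 178 ± 12.2, 252 ± 12.1 and 18.5 ± 2.48 CPM in capsules, L.O. set and Sph.WT set (SD, n = 3 each). MCM2, a helicase subunit, was at 494 ± 29.99, 456 ± 18.3 and 92.1 ± 4.83 CPM, and GINS2, of the helicase activator GINS, at 85.2 ± 3.97, 73.4 ± 5.13 and 12.9 ± 1.12 CPM. TYMS, thymidylate synthase, had a log2 fold change of -0.75 (SE 0.09; edgeR adjusted p = 2.4e-07), short of the 2-fold limit. Against the L.O. set 0 of 37 were called in either direction (edgeR), with a median of 0.35 against -0.01 over all genes tested. At an unadjusted p under 0.05 in that comparison, 28 were higher and 2 lower, beside 8918 of all 15919 genes tested. Of 46 promoter windows of these genes, 39.1% held at least 1 of the 4 E2F cores.

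The list of the ARF and MDM2 arm gave 2 of 8 called higher and 0 lower against the Sph.WT set (edgeR; 3 lower at an unadjusted p under 0.05), beside 26.3% higher and 25.4% lower over all genes tested. NPM1, the nucleolar protein that binds ARF, was at 1100 ± 65.8, 690.2 ± 59.5 and 363 ± 4.39 CPM (SD, n = 3 each), and PPM1D, a phosphatase of the DNA damage response, at 37.8 ± 2.15, 55.2 ± 1.68 and 13.8 ± 0.207 CPM. MDM2 was at 88.4 ± 13.1, 121 ± 12.3 and 50.5 ± 3.30 CPM and was not called. Without the second capsule library 2 genes of the list were called lower, and 1 without the last capsule, the second Sph.WT or the last Sph.WT library. Against the L.O. set CDKN1A was the 1 gene of 8 called, lower, beside 5.54% called lower over all genes tested. Against all 6 spheroid columns NPM1 was called higher (log2 fold change 1.03, edgeR adjusted p = 0.022), a call lost when any 1 capsule or any 1 Sph.WT library was left out, with values of 0.97 to 1.08.

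**Figure D4:**
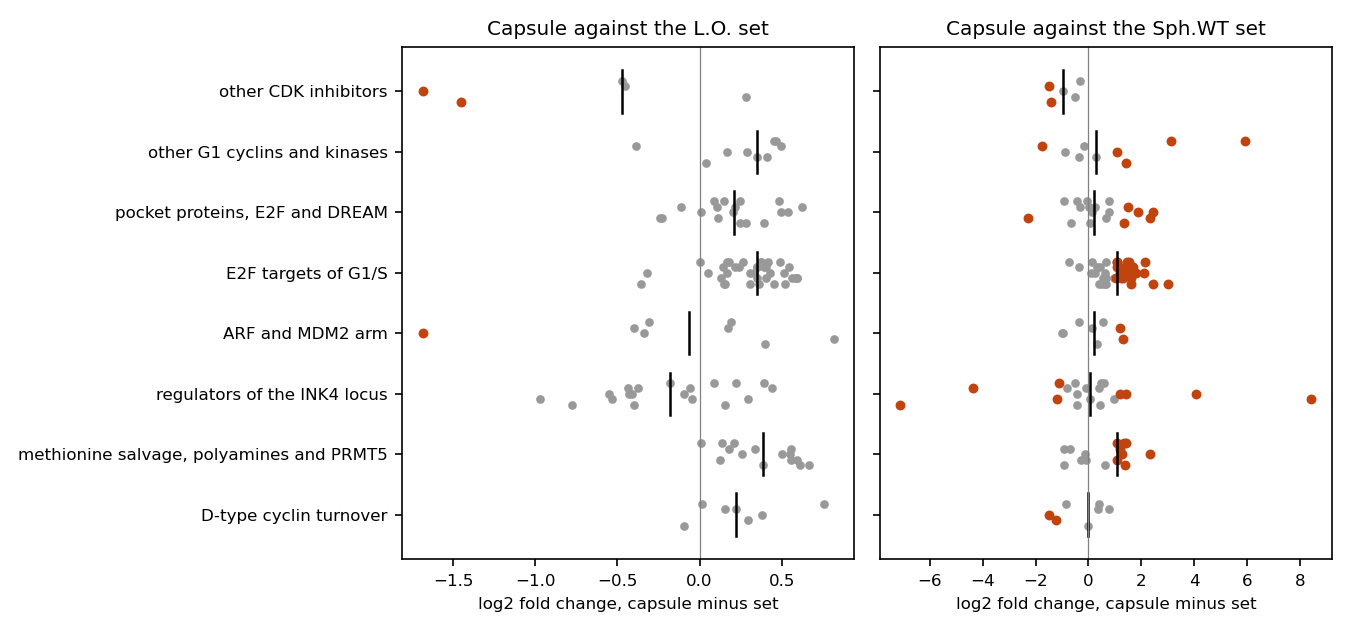
log2 fold change of each tested gene in 8 lists, capsule minus L.O. set on the left and capsule minus Sph.WT set on the right, with coloured points for genes called (edgeR adjusted p under 0.05 and at least 2-fold), grey points for the others and a bar at the list median. The 2 panels have different axis ranges, and E2F targets have 21 coloured points of 37 on the right and 0 on the left. Over all genes tested, 26.3% were called higher and 25.4% lower in the comparison on the right, and 0.792% and 5.54% in that on the left.

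Among regulators of the INK4 locus, 4 of 19 tested were called higher in the capsules than in the Sph.WT set and 4 lower, beside 26.3% higher and 25.4% lower over all genes tested. TBX3 and TBX2, T-box repressors of the locus, were at 68.8 ± 2.44 and 28.1 ± 1.32 CPM in the capsules, at 110.2 ± 10.4 and 45.7 ± 5.80 CPM in the L.O. set and at 0.171 ± 0.0627 and 1.40 ± 0.267 CPM in the Sph.WT set (SD, n = 3 each). Against the Sph.WT set, TBX3 passed the count filter only through the capsules and could not have been called lower. ETS1, an activator of CDKN2A transcription, was at 1.55 ± 0.243, 2.95 ± 0.218 and 178 ± 26.1 CPM, and ID1, which opposes it, at 9.26 ± 0.642, 10.7 ± 3.67 and 156 ± 31.1 CPM. CBX7, a Polycomb subunit, was at 12.2 ± 1.27, 26.5 ± 0.940 and 23.0 ± 1.63 CPM and was called lower against all 6 spheroid columns (log2 fold change -1.10, edgeR adjusted p = 0.015), a call lost when any 1 capsule library was left out, with values of -1.03 to -1.17. EZH2 and BMI1 had log2 fold changes of 0.04 and 0.59 against the Sph.WT set and were not called. Against the L.O. set 0 of 19 were called in either direction (edgeR). At an unadjusted p under 0.05 in that comparison, 3 were higher and 9 lower, beside 8918 of all 15919 genes tested. Without the last capsule library 1 was called lower there, and with library totals alone the 4 called lower against the Sph.WT set became 2.

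MTAP feeds methionine salvage, and its substrate methylthioadenosine inhibits the arginine methyltransferase PRMT5. Of 15 genes of this list tested, 8 were called higher in the capsules than in the Sph.WT set and 0 lower (edgeR). At an unadjusted p under 0.05, 4 were lower. Over all genes tested, 26.3% were called higher and 25.4% lower. ODC1, the first enzyme of polyamine synthesis, was at 269 ± 7.54, 203 ± 19.3 and 43.9 ± 2.33 CPM, MRI1, the salvage step after MTAP, at 106 ± 3.85, 116 ± 7.23 and 32.7 ± 3.79 CPM, and PRMT5 at 231 ± 6.03, 202 ± 5.26 and 83.0 ± 5.28 CPM (SD, n = 3 each). RIOK1, a PRMT5 adaptor, had a log2 fold change of 1.39 (SE 0.09; edgeR adjusted p = 1.1e-11). MAT2A, which makes the methyl donor, was at 297 ± 13.9, 223 ± 9.86 and 264 ± 17.0 CPM and was not called. The list's median log2 fold change against the Sph.WT set was 1.06, beside 0.01 over all genes tested. Against the L.O. set 0 of 15 were called (edgeR). At an unadjusted p under 0.05 in that comparison, 12 were higher and 0 lower, beside 8918 of all 15919 genes tested. The median there was 0.38, beside -0.01 over all genes tested.

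In the list of D-type cyclin turnover, 2 of 7 tested were called lower in the capsules than in the Sph.WT set and 0 higher (edgeR). At an unadjusted p under 0.05, 3 were higher. The share called lower is near that of all genes tested, of which 25.4% were called lower and 26.3% higher. The 2 called were the cullins CUL4A and CUL4B, at 51.0 ± 3.35 and 147 ± 12.1 CPM in the capsules against 118 ± 7.35 and 285 ± 17.1 CPM (SD, n = 3 each). AMBRA1, the substrate receptor for D-type cyclins, had a log2 fold change of 0.39 and was not called. None reached the call limits against the L.O. set, 0 of 7 (edgeR). At an unadjusted p under 0.05 in that comparison, 4 were higher and 0 lower, beside 8918 of all 15919 genes tested. With library totals alone 1 gene was called lower and 1 higher against the Sph.WT set.

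CDKN2A, MTAP and CCND1 differed mainly between column sets, so genes with near profiles had to share that division, and it is no result. The genes whose profiles over the 9 libraries lay nearest were found by Euclidean distance of centred log2(CPM + 0.5). For CDKN2A they were NEFL, AMOT, NPTX1, TENM1 and NEFM, at distances of 1.34 to 1.46. NEFL was at 141 ± 4.31 CPM in the capsules and had 0 counts in the Sph.WT set, and AMOT was at 321 ± 18.8, 300.3 ± 49.4 and 0.666 CPM in the 3 sets. For MTAP they were LIN28B, NUDT11 and NALF2 at 0.277 to 0.604, and for CCND1 they were SMURF2, PAM and ACSS2 at 0.153 to 0.176. SMURF2, a ubiquitin ligase gene, was at 43.3 ± 2.90, 50.8 ± 4.12 and 227 CPM. The choice for CDKN2A and MTAP depended on the pseudocount: with 0.1 CPM, 0 of the 5 and 1 of the 3 were the same genes, and with 1 CPM 2 of the 5 and 1 of the 3, while the 3 genes near CCND1 were the same in both.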

How the data were processed

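The deposited values were counts, whole numbers of reads per gene with no normalization, for 17911 Entrez genes in 9 columns. The build hg38, featureCounts and limma are named in the submitters' processing notes without versions. Aligner, annotation and strand setting are not given in the sources used here. RNA was extracted with TRIzol and libraries made with TruSeq, per the labels' protocols. The 3 capsule columns matched samples by name, and the 6 others matched the spheroid group only. A total of 237 rows had no symbol.

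The members and lists were chosen with earlier results of these data known. Counts were tested with edgeR 4.0.16 (TMM, default filter, quasi-likelihood) in R 4.3.3 with Benjamini-Hochberg adjustment, for capsules against 6 spheroid columns and against each column set, and checked on simulated data. The simulated spheroids came from a common mean per gene, so the check does not cover the split of the 6 real columns. DESeq2 1.42.0, other scalings, no filter and left-out libraries were alternatives. CPM used library totals, and 3 counts equalled 0.0902 to 0.227 CPM, which covers counting error only. Exon lengths came from GENCODE release 29 (17131 genes). Positions and promoters came from RefSeq on GRCh38.p14. Named genes were the members, up to 3 called genes with the largest change per list and direction, measured 9p21 and 11q13 neighbours, nearest profiles and markers, and other genes of the lists were named after their values were seen. Other steps ran in Python 3.11.15 with scipy 1.17.1. Some items of the lists are not reported here.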

Additional observations from a re-analysis of the deposited data

How the results depend on the processing

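No paired analysis was possible because the spheroid columns carry no number that ties them to a sample, so no replicate block could be fitted. The 177 genes called between capsules and the 6 spheroid columns became 2234 with DESeq2, 5221 with column sets as terms, 1008 against the L.O. set alone, 8344 against the Sph.WT set alone, 639 with no fold threshold and 0 to 219 without 1 library. It was 0 without any 1 capsule library, where 2448 to 2620 genes had an unadjusted p under 0.05 by edgeR. It was 111 without the second L.O. library and 53, 71 and 67 with the Sph.WT libraries left out in turn. Of the listed pathway genes, 4 were called, and 1 with library totals alone, 9 with DESeq2, 33 with column sets as terms, 62 against the Sph.WT set alone, 14 with no fold threshold and 0 to 5 without 1 library. CDKN1A, CDKN1C and NPM1 lost their calls with library totals alone, and CBX7 did not. Against single sets, the counts of 1008 and 8344 were 967 to 1098 and 8439 to 8730 without 1 library, and 7970 and 13909 with no fold threshold.

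For the members, the log2 fold change of CDKN2A was 9.25 against the Sph.WT set alone. CDKN2B had 3.18 with column sets as terms and 7.02 against the Sph.WT set alone. MTAP had 6.06 against the Sph.WT set. Against the L.O. and Sph.WT sets alone, RB1 had -0.24 and -1.5996 and CDK6 0.33 and -0.59. CCND1 had -0.020 against the L.O. set. Without 1 library the members kept their sign in the comparison with 6 columns, at 0.80 to 1.57 for CDKN2A and -2.04 to -1.62 for CCND1. Depth limits CDKN2B, CDKN2B-AS1 and ELAVL2 in the Sph.WT set, where they had 8, 3 and 1 counts.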
